A study of Mus musculus with 4 samples.

Results

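The genes S100a4, S100a6, S100a10, S100a11, Vim, Anxa1, Anxa2, Cd44, Timp1 and Lgals1 were followed through the cell classes of mouse HGG-MYCN tumors, as 10 of the 21861 features counted. They were chosen from measured values of these same cells, their level in mural, endothelial, immune and tumor cells and their difference between tumors taken on postnatal day (P) 43 and on P70. Their levels and age differences are therefore a description without a p-value, their calls are counted only beside the background with nothing read from them, and p-values are given for other genes of the same pathways. Single cells of 4 tumors were profiled by 3′ RNA sequencing with molecular identifiers, 1 tumor from each of 4 hGFAP-cre::TP53Fl/Fl::lsl-MYCN mice, namely mouse 4 and mouse 5 at 43 days of age (P43) and mouse 6 and mouse 7 at 70 days of age (P70). All 4 animals carried the same alleles. Cre under the human GFAP promoter deletes floxed Trp53 and switches on human MYCN with luciferase in neural precursors and their descendants, so vessel and immune cells of the tumors lie outside the lineage that is meant to recombine. Cells had been frozen before use, and dead cells had been sorted out. There was no tumor-free control, and since the labels do not say which libraries were prepared together, age and library cannot be told apart. The paper gives the source as olfactory bulb or tumor tissue. It describes P43 as early tumor onset and the P70 tumors as further developed. How much surrounding tissue each sample held is not given, so tumor stage and tissue sampled cannot be told apart from age either.

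S100 proteins are small calcium-binding proteins with EF-hand motifs that dock onto partner proteins. Annexins bind phospholipid membranes in a calcium-dependent manner, and S100A10 and S100A11 are known partners of annexin A2 and annexin A1. Vimentin is the intermediate filament of mesenchymal cells, CD44 the receptor for hyaluronan, TIMP1 a secreted inhibitor of matrix metalloproteinases, and galectin-1 (Lgals1) a lectin of the matrix and the cell surface. Together these genes are used as markers of a mesenchymal state of glioma cells, but they are also expressed by connective tissue and leukocytes. Mural cells are the pericytes and smooth muscle cells that wrap the vessel wall, next to the endothelium.

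The libraries held 11834 cell barcodes, of which 10975 cells passed the filters (3319, 1456, 2731 and 3469 in mouse 4 to 7) and 9839 received a class. The total of unique molecular identifiers (UMIs) per library ranged from 13106786 to 40621958, and the median per kept cell was 1419, 4201, 4587 and 10450 in mouse 4 to 7. Between 1 and 3 barcodes were shared by any pair of libraries. Expression of 4 Y-linked genes went against the labelled sex at P43, with 149 CPM (counts-per-million) in mouse 4, labelled female, and 0.371 CPM in mouse 5, labelled male, and sex was not used. The numbers of genes called in mural cells and endothelial cells (EC) are therefore also given without mouse 4 and without mouse 5. Transgene RNA (human MYCN plus luciferase) summed to 880 to 3310 CPM in the oligodendrocyte-like (OL-like) tumor cells and to 9.58 to 59.7 CPM in Myeloid cells. Trp53 was still counted in OL-like tumor cells at 28.7 to 68.5 CPM, but a 3′ tag may lie outside the deleted part and then checks nothing. Three-prime counting gives one level per gene and class, here the gene's UMIs summed over the cells of that class in each mouse as a part of all UMIs of those cells, and levels were compared within a gene only.

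All 10 identifiers matched GENCODE vM21 on GRCm38, the assembly also named mm10 that the deposited counts were made on. The 4 S100 genes lie on chromosome 3, S100a4 at chr3:90603771-90606045 and S100a6 at chr3:90612882-90624181 close to each other, S100a11 at chr3:93520488-93526287 and S100a10 at chr3:93555080-93564643 in a neighbouring stretch. Vim (chr2:13573927-13582826) and Cd44 (chr2:102811141-102901665) share chromosome 2. Anxa1 lies at chr19:20373428-20390944, Anxa2 at chr9:69453620-69491795, Timp1 at chrX:20870166-20874735 and Lgals1 at chr15:78926725-78930465. Promoters of 8 of the 10 genes were found in the RefSeq table of GRCm38.p6, all but those of S100a10 and Lgals1. A window of 250 bases before to 50 bases after the start was searched on both strands for 11 motifs. The AP-1 motif TGANTCA was present in 2 of the 8 genes, S100a11 and Anxa2, and in 7.81% of all 32851 promoters. The E-box CACGTG bound by MYC and MYCN was present in S100a11 and S100a6 and in 7.15% of all promoters. A TATA box (TATAAA) was found in 4 of the 8, Vim, Anxa1, Anxa2 and S100a4, against 13.6% of all promoters.

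The promoters of S100a11 and Anxa2 are shown because they hold the AP-1 motif, that of Vim as an example with a TATA box, and that of S100a6 because this gene differed most between the ages in mural cells. Each run gives the 250 bases before the start, 5′ to 3′ on the strand of the gene, and capitals mark AP-1, E-box and TATA motifs. The windows are chr3:93520246-93520495 for S100a11, chr9:69453433-69453682 for Anxa2, chr2:13574061-13574310 for Vim and chr3:90612644-90612893 for S100a6, all on the plus strand of GRCm38.p6.
S100a11: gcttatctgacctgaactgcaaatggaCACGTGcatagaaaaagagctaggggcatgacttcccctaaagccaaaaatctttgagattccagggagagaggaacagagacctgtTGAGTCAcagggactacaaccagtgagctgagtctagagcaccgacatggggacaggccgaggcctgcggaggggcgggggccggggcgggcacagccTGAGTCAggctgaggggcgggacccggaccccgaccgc
Anxa2: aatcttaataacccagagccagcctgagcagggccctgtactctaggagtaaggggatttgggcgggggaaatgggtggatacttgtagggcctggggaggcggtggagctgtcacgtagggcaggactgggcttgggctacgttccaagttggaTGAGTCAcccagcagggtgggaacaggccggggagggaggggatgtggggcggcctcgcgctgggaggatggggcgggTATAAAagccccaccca
Vim: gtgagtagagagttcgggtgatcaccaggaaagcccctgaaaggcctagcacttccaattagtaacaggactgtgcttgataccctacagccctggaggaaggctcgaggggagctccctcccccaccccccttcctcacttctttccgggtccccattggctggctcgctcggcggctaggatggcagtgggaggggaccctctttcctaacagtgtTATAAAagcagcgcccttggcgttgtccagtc
S100a6: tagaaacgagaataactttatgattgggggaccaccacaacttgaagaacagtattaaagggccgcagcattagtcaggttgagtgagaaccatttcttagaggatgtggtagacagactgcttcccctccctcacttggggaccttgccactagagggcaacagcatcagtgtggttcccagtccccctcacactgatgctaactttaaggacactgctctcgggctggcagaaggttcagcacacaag
In S100a11 the AP-1 motifs begin 136 and 38 bases before the start and the E-box 223 bases before it. In Anxa2 the AP-1 motif begins 95 bases and the TATA box 17 bases before the start, and in Vim the TATA box begins 32 bases before it. The S100a6 run holds none of these letters, and its E-box begins 14 bases after the start. Of the other motifs, ACGTG of the hypoxia response, whose letters also lie within the E-box, was found in 5 of 8 genes (19.6% of all promoters), GGGCGG of SP1 in 4 (35.7%), GGAAGT of ETS factors in 5 (23.8%) and GGAATG of TEAD factors in 2 (14.7%). NF-kB letters occurred in Vim alone (9.38%), whereas TTGCNNCAA of C/EBP (2.08%), TTCNNNGAA of STAT factors (8.3%) and the CArG box of SRF (1.63%) occurred in none of the 8 windows.

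Mural cells were the class in which every one of the 10 genes was higher at P70. This class held 272, 261, 214 and 36 cells in mouse 4 to 7, with 633804, 960380, 1014724 and 92514 UMIs, so the values of mouse 7 rest on few cells and UMIs. The cells carried pericyte markers at both ages: Rgs5 was counted at 10430, 14230, 14910 and 11380 CPM in mouse 4 to 7, and the potassium channel genes Kcnj8 and Abcc9 at 659 to 1134 CPM and 876 to 1364 CPM. Vtn, another pericyte marker, was counted at 16420 and 16200 CPM at P43 and at 4240 and 3254 CPM at P70, and the sum of all 8 mural markers was 34500, 39510, 24290 and 19270 CPM.

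S100a6 was almost absent from mural cells at P43 and abundant at P70. Mouse 4 gave 9.47 CPM and mouse 5 gave 8.33 CPM, whereas mouse 6 reached 661 CPM and mouse 7 reached 735 CPM, that is 14 UMIs in all at P43 and 739 at P70. Both P70 mice were far above both P43 mice. The fitted log2 difference was 6.45 ± 0.263 (SE, n = 2 mice per age), and the ratio of pooled levels was 76.0 (counting interval 45 to 140, exact 95%, counting error only). The neighbouring S100a4, linked to motile mesenchymal cells, stayed close to the detection limit with 4.73, 0, 18.7 and 10.8 CPM in mouse 4 to 7. These are 3 UMIs at P43 and 20 at P70, a ratio of 9.60 (2.85 to 50.4), and a count of 0 in mouse 5 allows up to 3.12 CPM.

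S100a10, the annexin A2 partner, was counted in mural cells at 0, 8.33, 70.0 and 97.3 CPM in mouse 4 to 7, with a log2 difference of 4.06 ± 0.554 (SE), the count of 0 in mouse 4 allowing up to 4.73 CPM. Anxa2 itself stood at 86.8, 106, 328 and 270 CPM, a log2 difference of 1.88 ± 0.211. S100a11, the annexin A1 partner, stood at 306, 499, 1437 and 1838 CPM, with a log2 difference of 2.17 ± 0.216. Anxa1, whose protein has anti-inflammatory roles in leukocytes, was counted at 6.31, 4.17, 138 and 227 CPM, a log2 difference of 5.10 ± 0.391. In each of these 4 genes the lower P70 mouse was above the higher P43 mouse.

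Vim was already present in mural cells at P43, with 273 and 269 CPM in mouse 4 and mouse 5, and reached 2376 and 2800 CPM in mouse 6 and mouse 7. Its log2 difference of 3.43 ± 0.162 (SE) had the smallest error of the set. Lgals1 was counted at 308, 405, 1619 and 1827 CPM, a log2 difference of 2.44 ± 0.176. For the hyaluronan receptor gene Cd44 the level was 4.73, 5.21, 75.9 and 64.9 CPM (log2 difference 4.04 ± 0.416). Timp1, the metalloproteinase inhibitor, stood at 0, 7.29, 97.6 and 173 CPM (log2 difference 4.80 ± 0.514). No gene of the set overlapped between the ages in mural cells, though for S100a4 the mouse 7 level of 10.8 CPM is 1 UMI. A count of 0 in that mouse would allow up to 32.4 CPM. The fitted differences of S100a10 and Timp1 moved most when a mouse was left out, to 3.34 and 4.13 without mouse 4 and to 8.52 and 9.12 without mouse 5, when mouse 4 with its 0 counts is the P43 arm. Without mouse 6 the Timp1 difference was 5.41. These fitted values rest on a few P43 UMIs and are no bounds.

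**Figure D1:**
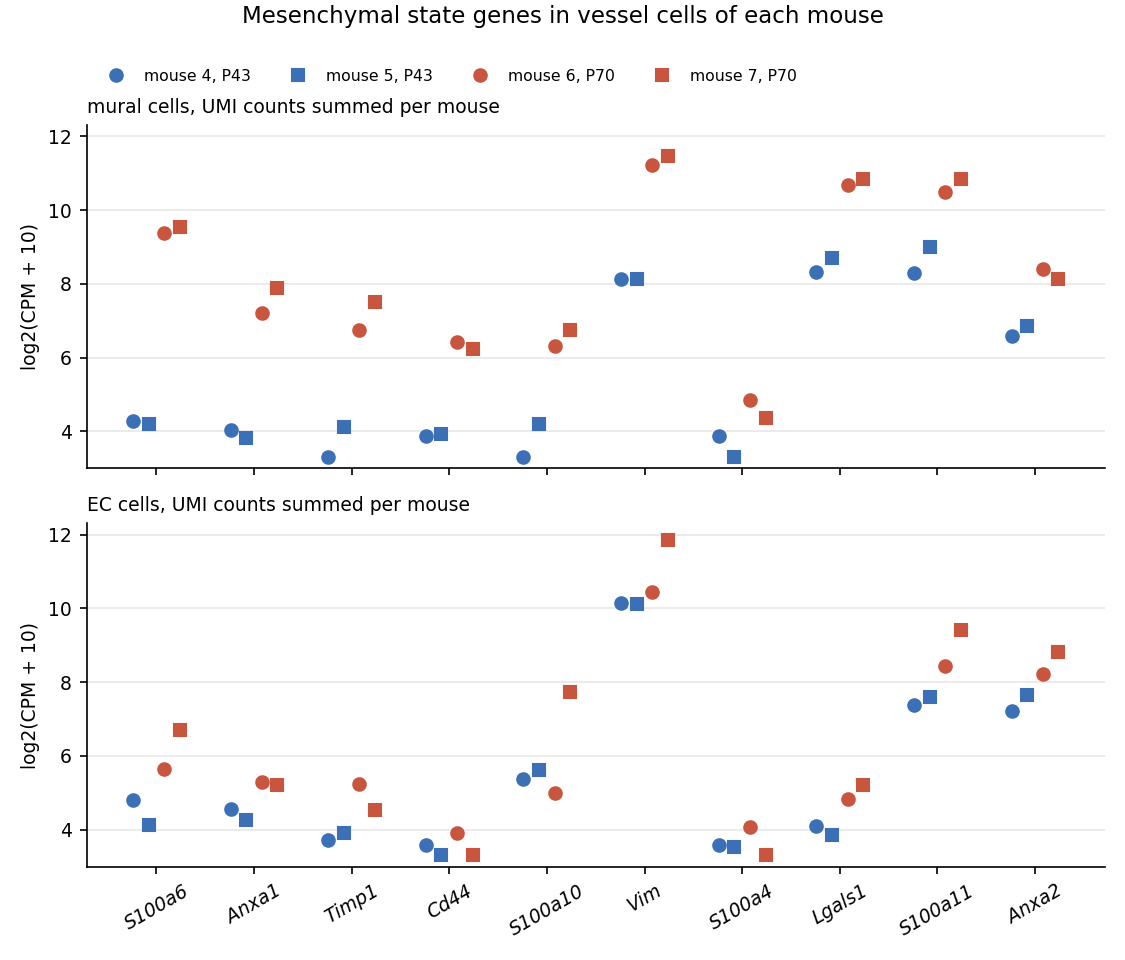
Level of each of the 10 genes as log2(CPM + 10) in mural cells (upper panel) and endothelial cells (EC, lower panel), with 1 point per mouse, blue for P43 and red for P70. In mural cells both red points lie above both blue points for all 10 genes, from 9.47 and 8.33 CPM to 661 and 735 CPM for S100a6, whereas in EC the S100a10, Cd44 and S100a4 points overlap.

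The 10 of 10 genes without overlap and higher at P70 in mural cells stand beside 18.9% of the 8526 genes tested in this class. Of the 9 genes that passed the filter on low counts, all but S100a4, 9 were called higher at P70 by edgeR's quasi-likelihood test with Benjamini-Hochberg adjustment, against 10.8% of all genes tested. Nothing is read from these counts, because the contrast served to choose the genes. The median log2 difference was 4.04 over the 9 and -0.02 over all genes. Without mouse 4 or mouse 5 it was 3.69 and 3.72 over the genes that then passed the filter, and 1072 and 991 genes were called. Without mouse 6 no gene at all was called in mural cells (0 of 8483, the P70 arm then being mouse 7 alone), and without mouse 7 the number was 359 in place of 1618. DESeq2 called 574 genes. An exact permutation test of 2 against 2 mice cannot give a p below 0.33.

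Markers of other cell types moved with the mural result. The 8 fibroblast markers summed to 757 and 759 CPM in mouse 4 and mouse 5 and to 3173 and 1751 CPM in mouse 6 and mouse 7. Most of this was collagen in every mouse: Col1a2 stood at 402, 416, 818 and 443 CPM, Col3a1 at 273, 286, 1573 and 940 CPM and Col1a1 at 0, 0, 634 and 141 CPM. The fibroblast markers Lum, Pdgfra and Mfap5 reached at most 10.8, 3.94 and 54.1 CPM in any mouse, and Dcn stood at 28.1 to 75.7 CPM. The remaining marker, Fbln1, made up the rest of the sum, which in mouse 7 was above each of these. Smooth muscle markers summed to 1780 and 1592 CPM at P43 and 2891 and 3200 CPM at P70. The 10 Myeloid markers summed to 14.2, 5.21, 167 and 0 CPM, all 10 being at 0 in mouse 7. Monocyte markers summed to 41.0, 29.2, 1922 and 940 CPM. Of this, Fn1, also a matrix gene, made up 34.7, 24.99, 1467 and 670 CPM. The rest of the sum, from the other monocyte markers, was also higher in both P70 mice than in both P43 mice. Transgene RNA stood at 53.6, 68.7, 155 and 184 CPM. The part of these in the result was not tested beyond the following values.

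The class was regrouped in other ways. At a finer resolution of 1.0, fibroblast cells (55 cells) and smooth muscle cells (37 cells) formed clusters of their own. The mural class kept all its 783 cells, with the smooth muscle cluster still counted in it. No mural cell moved to the fibroblast cluster, so this step says nothing about fibroblast-like cells within the class. With the smooth muscle cluster left out, the median log2 difference was 3.93 and 1618 genes were called. When the 4 libraries were clustered without integration, however, 179 of the 214 mural cells of mouse 6 and 23 of the 36 of mouse 7 fell into a cluster named fibroblast by its markers, compared with 3 of 272 and 2 of 261 at P43. Only 13 of the mouse 7 cells kept the mural name, too few for a fit.

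Per cell, S100a6, Vim and Lgals1 appeared in a large share of P70 mural cells. Each cell was thinned to 2000 UMIs and shallower cells were left out, 114, 36, 114 and 21 in mouse 4 to 7, so that depth was equal. Mural cells then held on average 1.10 and 1.35 of the 10 genes at P43 and 3.97 and 5.20 at P70. S100a6 was detected in 1 of 158 and 3 of 225 cells at P43 and in 48 of 100 and 9 of 15 at P70, that is 0.633% (exact 95% interval 0.016 to 3.48), 1.33% (0.276 to 3.85), 48.0% (37.9 to 58.2) and 60.0% (32.3 to 83.7). Vim was detected in 19.0% and 19.6% of mural cells at P43 and in 87.0% and 100% at P70. For Lgals1 the shares were 35.4%, 39.6%, 85.0% and 93.3%. OL-like tumor cells, taken as a background class, gave S100a6 in 0.429%, 0.976%, 8.87% and 0.986% of cells in mouse 4 to 7. The P43 mural shares were slightly above the OL-like shares of the same mice, with overlapping counting intervals. Without thinning, at a median depth of 2337, 3580, 1565 and 1410 UMIs, the mural shares of S100a6 were 1.47%, 2.30%, 55.6% and 47.2%.

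Cells with and without fibroblast marker UMIs were then set apart, as a description. Of the 82 thinned mouse 6 cells with at least 1 fibroblast marker UMI, 47 had S100a6 (57.3%), compared with 1 of 18 cells without such a UMI (5.56%). At P43 S100a6 was found in 0 of 112 and 2 of 157 cells with a fibroblast marker UMI. In mouse 6 Vim was detected in 74 of 82 cells with and 13 of 18 cells without fibroblast marker UMIs, and Lgals1 in 70 of 82 and 15 of 18. Only 1 thinned cell of mouse 7 lacked a fibroblast marker UMI.

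**Figure D2:**
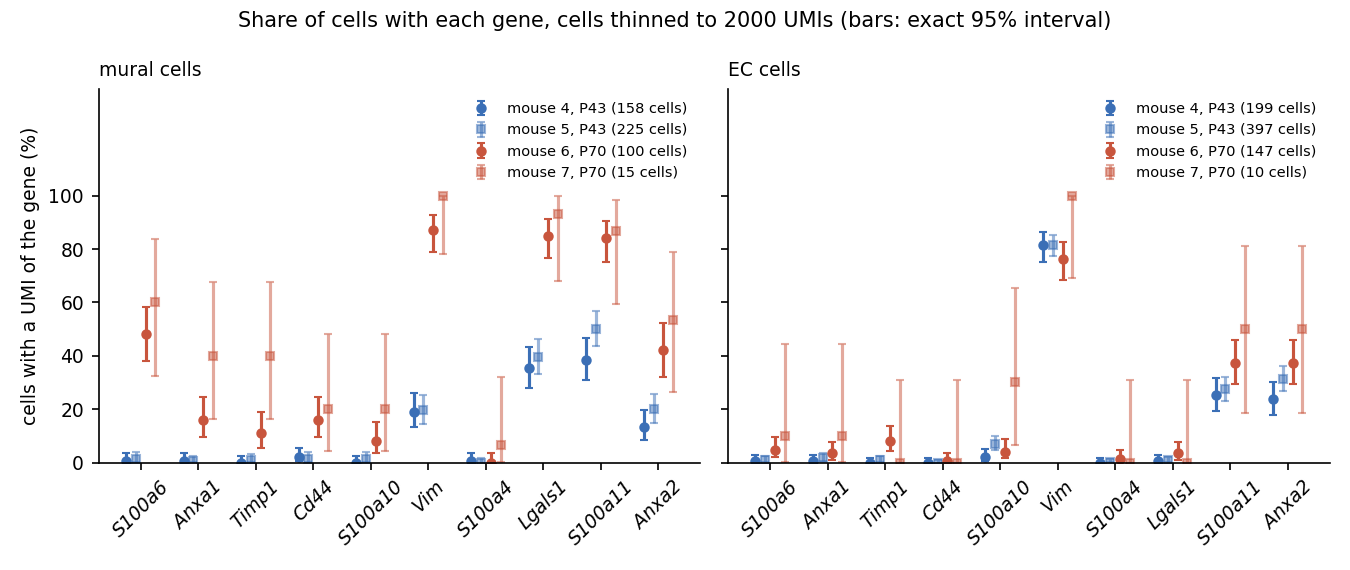
Percent of mural cells (left) and EC (right) with at least 1 UMI of each gene after thinning every cell to 2000 UMIs, 1 point per mouse with its exact 95% interval, which covers counting error only. P70 shares in mural cells reach 87.0% and 100% for Vim against 19.0% and 19.6% at P43, while Vim in EC lies between 76.2% and 100% at both ages.

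Endothelial cells showed smaller differences, in 7 of the 10 genes with both P70 mice above both P43 mice, against 18.3% of the 8783 genes tested. The class held 418, 498, 292 and 36 cells, and mouse 7 contributed only 74693 UMIs. Without integration, cells named EC formed a cluster of 403, 479, 66 and 27 cells in mouse 4 to 7. A further EC cluster, with Vwf and Angpt2 among its leading genes, held 24, 21, 230 and 8 cells. The part of this split in the result was not tested. Vim was counted at 1129, 1092, 1389 and 3695 CPM in mouse 4 to 7, a log2 difference of 1.15 ± 0.310 (SE), so that most of the gap came from mouse 7. S100a11 stood at 158, 184, 338 and 669 CPM (1.40 ± 0.243) and Anxa2 at 138, 190, 286 and 442 CPM (1.06 ± 0.226). Both were in order of age without overlap.

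The next 4 genes were low in EC. S100a6 was counted at 17.8, 7.65, 40.1 and 93.7 CPM (log2 difference 2.12 ± 0.463), the last resting on 7 UMIs. Timp1 stood at 3.14, 5.10, 28.1 and 13.4 CPM, Anxa1 at 13.6, 9.19, 29.0 and 26.8 CPM and Lgals1 at 7.33, 4.59, 18.8 and 26.8 CPM. Both P70 mice were above both P43 mice in each. In mouse 7, however, Timp1 rests on 1 UMI and Anxa1 and Lgals1 on 2 UMIs each. A count of 0 in these mouse 7 cells would allow up to 40.2 CPM. The remaining genes overlapped: S100a10 at 31.4, 38.8, 22.2 and 201 CPM, Cd44 at 2.09, 0, 5.11 and 0 CPM and S100a4 at 2.09, 1.53, 6.82 and 0 CPM. The pooled ratio of S100a10 was 0.904 (counting interval 0.614 to 1.31). Its fitted log2 difference ranged from -0.56 to 2.43 over 10 settings, so its direction was not stable. In EC 8 genes passed the filter and 7 of them were called higher at P70 by edgeR, beside 6.28% of all genes. DESeq2 called 1 of the 8, beside 239 of the 8783 genes tested. Nothing is read from these counts. The S100a6 difference was 2.76 without mouse 4 and 2.97 without mouse 6, and that of Vim was 0.45 without mouse 7. The median log2 difference of the 8 was 1.46, compared with -0.03 over all genes, and without mouse 4 no gene was called (0 of 9424, the P43 arm then being mouse 5 alone). Without mouse 5 the number was 371 and without mouse 6 it was 254, in place of 864, and DESeq2 called 239. Endothelial markers summed to 19900, 20590, 13350 and 13550 CPM, fibroblast markers to at most 13.4 CPM and smooth muscle markers to at most 26.4 CPM. Hemoglobin genes and Alas2, markers of red cells, summed to 2525, 2157, 44.3 and 0 CPM, lower at P70, and their part was not tested. Transgene RNA was 38.7, 28.6, 37.5 and 321 CPM.

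Immune cells carried most of the genes at both ages, mostly with lower levels at P70. In Myeloid cells (53, 65, 804 and 145 cells) 8 of the 10 genes were lower at P70 without overlap, against 25.9% of the 5519 genes tested. Vim was counted at 1298 and 1392 CPM in the P43 mice and at 706 and 631 CPM in the P70 mice, a fitted log2 difference of -0.93 ± 0.209 (SE). S100a6 was counted at 1116, 1390, 811 and 369 CPM (-1.0 ± 0.357). S100a4, which unlike in mural cells was abundant here, was counted at 518, 964, 360 and 213 CPM (-1.28 ± 0.375). Mouse 7 had the lowest value throughout. For Anxa1 the levels were 120, 154, 55.6 and 26.0 CPM (-1.55 ± 0.388).

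S100a10 in Myeloid cells followed at 254, 312, 181 and 88.2 CPM, S100a11 at 436, 424, 330 and 221 CPM, Anxa2 at 244, 231, 198 and 104 CPM and Lgals1 at 498, 351, 346 and 314 CPM. Cd44 stood out by its even level of 230, 231, 200 and 234 CPM, with a log2 difference of -0.01 ± 0.275. Timp1 was barely counted, at 0, 7.89, 7.72 and 0 CPM. The make-up of the class differed between the libraries: microglia markers summed to 1993, 982, 880 and 1528 CPM, monocyte markers to 4145, 3927, 6259 and 2504 CPM and neutrophil markers to 225, 288, 1017 and 12.97 CPM. None of these 3 sums separated the ages, and their part in the result was not tested. At the finer resolution the class split further. A cluster led by Cebpb held 40, 51, 681 and 116 cells in mouse 4 to 7. Another led by C1qc held 13, 14, 121 and 29 cells, at P43 below the 20 cells per mouse needed for a fit. The lower P70 levels are therefore those of the joined class, and the clusters were not tested apart. The median over the 9 genes that passed the filter was -0.93, compared with 0.02 over all genes. The sizes of these differences depended on single mice. Without mouse 6 the log2 difference was -1.70 for S100a6, -1.62 for S100a10 and -2.35 for Anxa1, and without mouse 7 that of S100a6 was -0.53. For S100a4 it was -0.74 without mouse 5 and -1.75 without mouse 6, and for Lgals1 it was -0.01 without mouse 4.

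In dendritic cells (DC; 74, 77, 487 and 68 cells) 5 of the 10 genes were lower at P70 without overlap, against 20.3% of the 5629 genes tested. Vim was counted at 1428, 1059, 689 and 750 CPM (log2 difference -0.80 ± 0.232, SE) and S100a6 at 1399, 1216, 1113 and 750 CPM. S100a10 (365, 228, 113 and 191 CPM), Cd44 (164, 123, 121 and 90.5 CPM) and Lgals1 (394, 288, 283 and 206 CPM) completed this group. S100a11 stood at 652, 743, 725 and 699 CPM, Anxa2 ranged from 194 to 361 CPM and S100a4 ranged from 448 to 863 CPM, all with overlap of the ages. Anxa1 overlapped likewise between 70.7 and 160 CPM. The class joined a Cd209a cluster (33, 62, 269 and 49 cells) with a Ccr7 cluster (37, 9, 160 and 16 cells). A further cluster led by Ly6d held 4, 6, 58 and 3 cells. Within the Cd209a cluster at resolution 1.0, S100a6 stood at 1312, 1203, 1302 and 770 CPM, so the ages overlapped. There Lgals1 (302, 240.3, 238.9 and 240.2 CPM) was nearly level in mouse 5 to 7. Cd44 (197, 96.1, 88.6 and 91.9 CPM) did not overlap there but was likewise nearly level in mouse 5 to 7. Vim and S100a10 did not overlap there, and the part of the make-up was not tested.

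Lymphoid cells (140, 173, 290 and 24 cells) held the largest S100a4, S100a6 and S100a10 values among class profiles of at least 20 cells, all in mouse 5. S100a4, known in memory T cells, was counted at 522, 1250, 161 and 182 CPM (log2 difference -2.46 ± 0.455, SE, and -1.74 without mouse 5). S100a6 stood at 704, 1461, 416 and 303 CPM and S100a10 at 754, 1189, 557 and 485 CPM. Together 6 genes were lower at P70 without overlap, against 19.8% of the 5912 genes tested, and Anxa2 stood at 149, 150, 178 and 152 CPM, the last from 5 UMIs. The class joined a T cell cluster (66, 152, 108 and 22 cells) and a B cell cluster (74, 21, 182 and 2 cells). Within the T cell cluster S100a4 stood at 667, 1336, 186 and 236 CPM and S100a6 at 844, 1559, 520 and 393 CPM, again without overlap. Values of mouse 7 rest on 32978 UMIs, and Timp1 was not counted in any mouse.

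**Figure D3:**
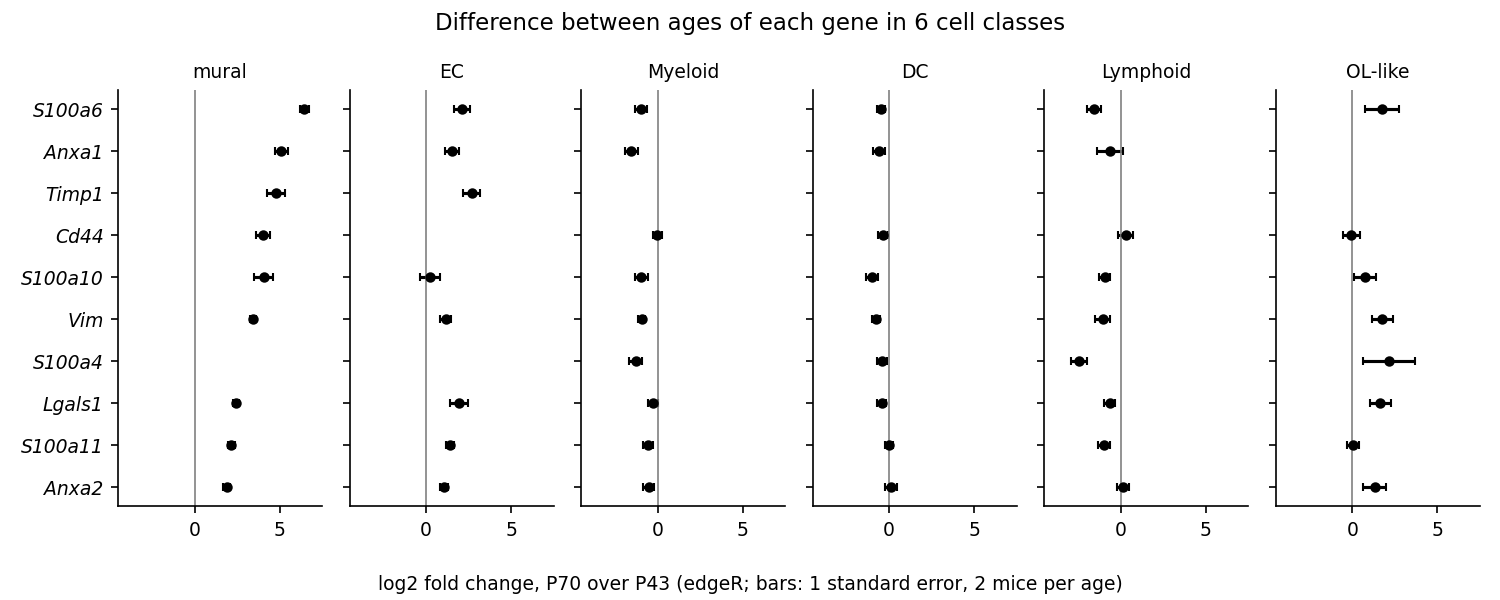
Fitted log2 difference between P70 and P43 of each gene that passed the filter on low counts, in 6 cell classes, with bars of 1 standard error and 2 mice per age. Points lie to the right of 0 in mural cells and EC (6.45 for S100a6 in mural cells) and mostly to the left in Myeloid, DC and Lymphoid cells (-2.46 for S100a4 in Lymphoid cells).

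OL-like tumor cells carried little of the set. In these cells (1735, 219, 313 and 1842 cells) Vim was counted at 119, 31.9, 304 and 228 CPM, below the Myeloid, DC and EC values of every mouse. Both P70 mice were above both P43 mice, and the log2 difference was 1.77 ± 0.618 (SE), with mouse 5 well below mouse 4, and 2.98 without mouse 4. S100a6 stood at 7.42, 4.07, 35.9 and 5.13 CPM and Lgals1 at 17.7, 4.5, 41.7 and 32.1 CPM. S100a10 stood at 46.8, 10.7, 40.6 and 60.0 CPM, with overlap of the ages. Higher at P70 without overlap were 4 genes, Vim, Lgals1, Anxa2 and Timp1, against 19.5% of the 11529 genes tested. Timp1 did not pass the filter on low counts and is not among the genes tested. Anxa2 stood at 7.53, 1.93, 8.50 and 16.4 CPM, so mouse 4 and mouse 6 were close. Timp1 stood at 0.342, 0, 0.549 and 1.01 CPM, from 3, 0, 2 and 25 UMIs, and the count of 0 in mouse 5 allows up to 0.643 CPM. In mouse 6, in which S100a6, S100a4 and Vim were highest, these cells also held 95.2 CPM of Myeloid markers, compared with 3.22 to 16.6 CPM in the other mice, and the part of this was not tested.

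The neuroblast-like (NB-like) tumor cells held little of the set apart from S100a10, which reached 226 CPM in the 593 cells of mouse 7 and 90.9 and 59.9 CPM in the 76 and 29 cells of mouse 4 and mouse 6. In the same mouse 7 cells Vim stood at 51.0 CPM, Lgals1 at 15.8 CPM, S100a6 at 2.67 CPM and Timp1 at 0 CPM (limit 0.349 CPM). Anxa1 was counted at 55.9 CPM in mouse 6, all of it in 1 of the 29 cells, and at 0.116 CPM in mouse 7. Mouse 5 gave only 9 such cells, and no fit was made. Astrocyte-like (AC-like) tumor cells, in contrast, had Vim at the level of P70 mural cells: 2494 CPM in the 206 cells of mouse 7 and 3336 CPM in the 83 cells of mouse 6. In mouse 7 this was not shared by S100a6 (44.5 CPM), Lgals1 (91.1 CPM) or Timp1 (10.8 CPM). S100a11 (261 CPM) and Anxa2 (169 CPM) were also below their P70 mural levels, while S100a10 (259 CPM) was above its own.

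The AC-like cluster of mouse 6 also showed S100a6 at 1242 CPM and Lgals1 at 1390 CPM, and here fibroblast markers summed to 5470 CPM, compared with 37.1 CPM in mouse 7. At resolution 1.0, where fibroblast cells separate, the mouse 6 AC-like cells (53) stood at 3447 CPM for Vim, 972 for S100a6 and 362 for Lgals1. At P43 the cluster held only 36 and 13 cells with 3417 and 4664 CPM of ependymal markers, so that the ages were not compared. Among cells with low transgene levels, mature oligodendrocytes (MOL) had Vim at 5.04, 16.9 and 184 CPM in mouse 4, mouse 5 and mouse 7 and S100a6 at 164, 104 and 18.8 CPM. Oligodendrocyte precursors (OPC) had S100a6 at 306 CPM in mouse 5 and 82.2 CPM in mouse 7 (22 and 112 cells).

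**Figure D4:**
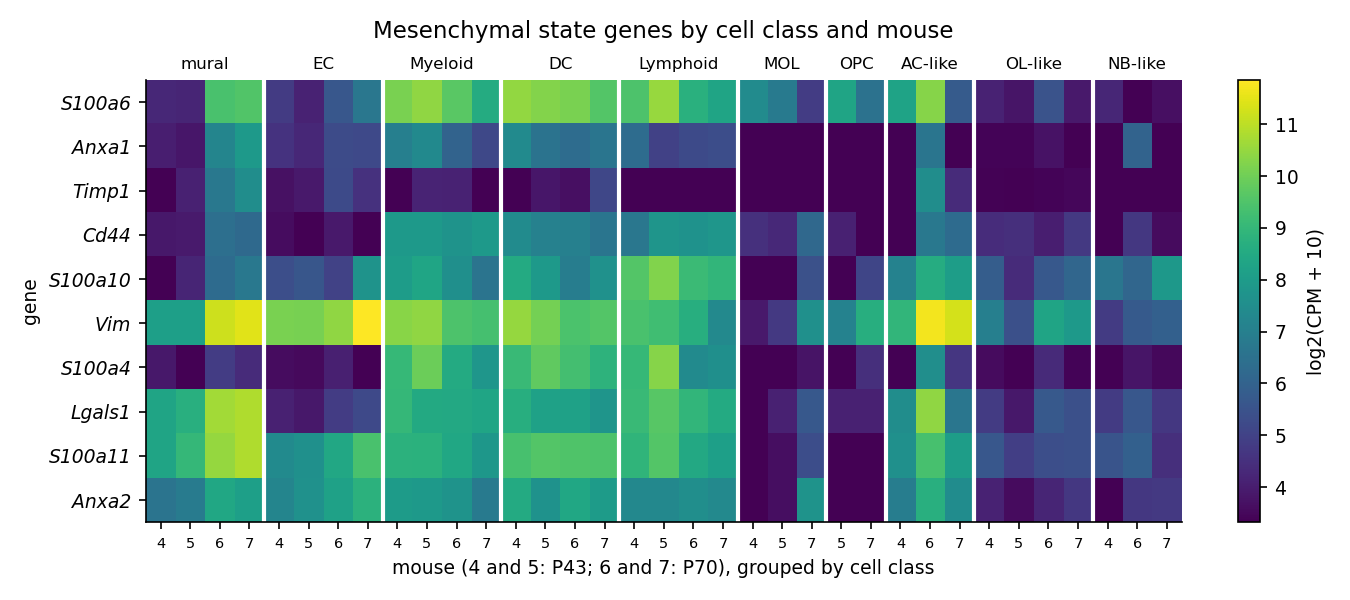
Level of each gene as log2(CPM + 10) in every class and mouse with at least 20 cells, 35 profiles in all. Immune classes are bright for S100a6, S100a4, S100a10 and S100a11 in all mice, mural columns brighten between mouse 5 and mouse 6 for all genes, and OL-like and NB-like columns are dark for S100a6, at 35.9 CPM or less.

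Among the 6 classes that were fitted, Vim at P43 was highest in Myeloid, DC and EC (1059 to 1428 CPM), of which DC overlapped both others while Myeloid cells were above EC, followed by Lymphoid (597 and 671 CPM), mural (269 and 273 CPM) and OL-like cells (31.9 and 119 CPM). At P70 the order changed to mural cells and EC, whose ranges overlapped with each other and with AC-like cells, then DC and Myeloid cells (631 to 750 CPM), then Lymphoid and OL-like cells. S100a6 at P43 was highest in the immune classes (704 to 1461 CPM) and below 17.8 CPM or at it in mural, EC and OL-like cells. At P70 mural cells (661 and 735 CPM) lay within the range of Myeloid cells (369 and 811 CPM). Among the fitted classes Cd44 remained highest in the immune classes, with 90.5 to 234 CPM at P70 against 64.9 and 75.9 CPM in mural cells. AC-like tumor cells, which were not fitted, had Cd44 at 155 CPM in mouse 6 and 71.1 CPM in mouse 7 at resolution 1.0. Timp1 had its highest values among the classes of at least 20 cells in mural cells and in the AC-like cluster of mouse 6 (170 CPM), which also held fibroblast markers. At resolution 1.0, where fibroblast cells separate, the mouse 6 AC-like cells stood at 58.1 CPM of Timp1. The 30 fibroblast cells of mouse 6 then stood at 342 CPM. Timp1 was not counted in Lymphoid cells and reached at most 25.2 CPM in the other immune classes.

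Across the 35 class-by-mouse profiles each gene was compared with the mean of the others. Pearson's r was highest for S100a11 (0.85), Anxa1 (0.84) and Lgals1 (0.84) and lowest for Timp1 (0.43), as a description, since profiles of 1 mouse share a library. Outside the set, the genes most like the mean of the 10 were Runx1 (r = 0.91), Csrnp1 (0.90), Nfkbiz (0.90), Rara (0.90) and Emp3 (0.89), out of 9816 genes that reached 50 CPM in at least 1 profile.

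To place the set in its pathways, 142 further genes in 9 lists were examined in the same fits, among them other S100 proteins, annexins, galectins, matrix proteases, filaments, CD44 ligands and mesenchymal transcription factors. These lists were written with earlier results of the data known and are no independent evidence of a direction. In mural cells 96 of them were tested, of which 52 rose and 7 fell at P70 (edgeR, adjusted p under 0.05 over all genes), against 10.8% of all genes higher and 8.21% lower. In EC 24 of 90 rose and 7 fell, against 6.28% and 3.55%. In DC 2 of 73 rose and none fell, against 0.764% and 0.64%. In Myeloid cells 0 of 75 passed with edgeR, with 21 at an unadjusted p under 0.05 and 5 by DESeq2, beside 0.163% of all genes called lower. In Lymphoid cells 0 of 68 passed (16 unadjusted, 0 by DESeq2), beside 0% of all genes. In OL-like cells 0 of 98 passed (13 unadjusted, 3 by DESeq2), beside 0% of all genes.

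In mural cells the relatives of the proteins were tested in part. Of the other S100 genes just 2 of 12 were tested, and S100a13 rose. Anxa5 and Anxa6 rose among 5 annexins tested, and Lgals9 and Lgals3bp among 4 galectins. Of 9 inhibitors and proteases of the matrix, 6 rose (Timp2, Timp3, Mmp11, Mmp14, Adamts1 and Adamts4) and Mmp15 fell. The filament list gave 12 of 19 higher, including Des, Plec, Acta2, Tagln and 4 tropomyosin genes, and 1 lower, Myl9. Des, Acta2, Tagln and the tropomyosins are also genes of smooth muscle.

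Among the CD44 ligands and partners, Hmmr, another hyaluronan receptor, was counted in mural cells at 1.58, 2.08, 56.2 and 86.5 CPM. Its log2 difference was 5.08 ± 0.541 (SE; edgeR adjusted p = 1.56e-05), while the pooled ratio was 31.2 (10.2 to 155) because P43 gave only 3 UMIs. Spp1, the CD44 ligand osteopontin, went the other way, at 287, 97.9, 40.4 and 75.7 CPM (-1.84 ± 0.485, edgeR adjusted p = 0.0164). Msn, Srgn and Itga5 rose as well, so that 4 of 7 tested were higher and 1 lower.

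The mesenchymal state list of glioma had 12 of 19 genes higher and 1 lower. Fn1, the fibronectin of the matrix, was counted in mural cells at 34.7, 24.99, 1467 and 670 CPM, a log2 difference of 5.50 ± 0.353 (edgeR adjusted p = 4.98e-07). Emp1, a membrane protein gene, rose from 1 UMI in both P43 mice together to 33.5 and 140.5 CPM at P70, with a pooled ratio of 67.7 (11.6 to 2729; edgeR adjusted p = 0.000484). The urokinase gene Plau fell, at 37.9, 39.6, 12.8 and 21.6 CPM (adjusted p = 0.0495 in edgeR). Of the hypoxia list 3 of 10 rose (Hilpda, Ldha and Pgk1) and 2 fell, Adm at 41.0, 51.0, 17.7 and 21.6 CPM (edgeR adjusted p = 0.0498) and Ddit3 at 114, 128, 27.6 and 86.5 CPM (edgeR adjusted p = 0.00445).

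Transcription factors of the mesenchymal list were higher in 10 of 21 and lower in 1. The AP-1 member gene Fosl2 was counted in mural cells at 6.31, 5.21, 92.6 and 119 CPM, a log2 difference of 4.26 ± 0.373 (edgeR adjusted p = 3.87e-06). The small MAF gene Maff was counted at 1.58, 2.08, 27.6 and 54.1 CPM, from 3 UMIs at P43, with a pooled ratio of 15.8 (4.97 to 80.7; edgeR adjusted p = 0.00052). Runx1, Bhlhe40, Cebpb, Cebpd, Stat3, Klf6, Prrx1 and Zeb2 also rose, whereas Snai1, a repressor of epithelial genes, fell from 71.0 and 83.3 CPM to 31.5 and 10.8 CPM (edgeR adjusted p = 0.0176). A count of 0 in the mural cells of mouse 7 would allow up to 32.4 CPM, above its levels of Snai1, Plau and Adm. All of the related mural calls are lost when mouse 6 is left out, and DESeq2 called 35 in place of 59.

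In EC the largest rise of a related gene was that of a matrix protease. Mmp14, a membrane-bound metalloproteinase, was counted at 3.14, 1.53, 40.9 and 93.7 CPM, a log2 difference of 4.54 ± 0.549 (SE; edgeR adjusted p = 0.000135), and Adamts4 at 3.14, 2.04, 12.8 and 26.8 CPM (edgeR adjusted p = 0.0268). Socs3, a feedback inhibitor of STAT3 signaling, stood at 13.6, 29.1, 121 and 80.3 CPM (2.42 ± 0.323, edgeR adjusted p = 0.000294), and Cd63 at 14.7, 3.57, 37.5 and 66.9 CPM (edgeR adjusted p = 0.00795). A count of 0 in the EC of mouse 7 would allow up to 40.2 CPM, above its Adamts4 level. Transcription factors rose in 8 of 17, Fosl2 and Maff among them, and none fell.

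Genes that fell in EC were the filament gene Nes (876, 1038, 223 and 455 CPM, log2 difference -1.68 ± 0.260, edgeR adjusted p = 0.000883) and the caveolin gene Cav1 (239, 261, 87.8 and 53.6 CPM, edgeR adjusted p = 0.00111). Ndrg1 stood at 364, 378, 120 and 228 CPM (edgeR adjusted p = 0.0024), Mmp15 at 83.7, 60.7, 27.3 and 13.4 CPM (edgeR adjusted p = 0.0216) and the CD44 linker gene Rdx at 550, 589, 246 and 241 CPM (edgeR adjusted p = 0.00263). Mmp15 was thus lower at P70 in both classes of the vessel wall. Its EC level in mouse 7 is below the 40.2 CPM that a count of 0 would allow. All 31 related EC calls are lost when mouse 4 is left out, and DESeq2 called 10. In DC the genes that rose were Mmp25 (12.31, 23.5, 96.3 and 75.5 CPM, edgeR adjusted p = 0.0349) and Ifitm2 (271, 521, 1572 and 1318 CPM, edgeR adjusted p = 0.0295). Mmp25 was not called without mouse 5 or mouse 6 (edgeR adjusted p = 0.109 and 0.26) or by DESeq2 (adjusted p = 0.144).

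**Figure D5:**
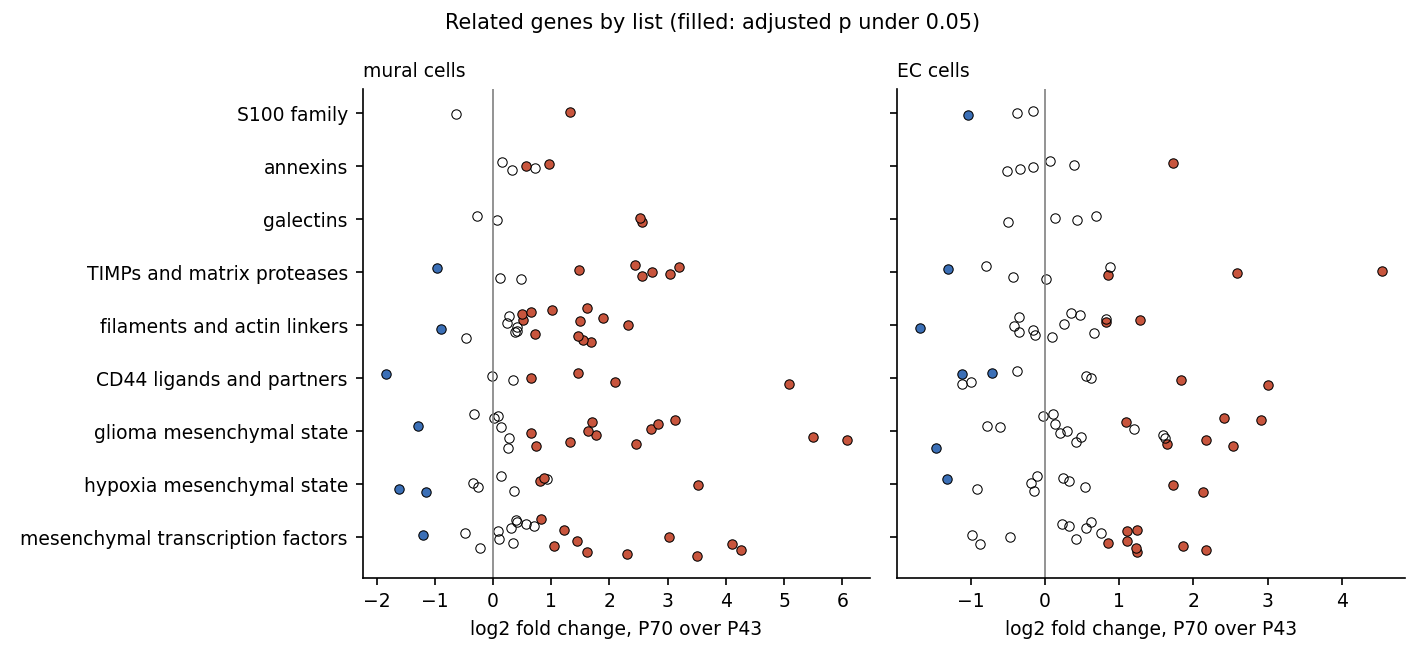
Fitted log2 difference between P70 and P43 of the tested genes of 9 related lists in mural cells (left, 96 genes) and EC (right, 90 genes), 1 point per gene, filled red or blue where it rose or fell with an adjusted p under 0.05 in edgeR. In mural cells 52 points are filled red and 7 blue, in EC 24 and 7.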

How the data were processed

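Counts of UMIs per gene and cell were deposited by the authors, made with Cell Ranger 6.0.2 on mm10 extended by the transgenes, 1 filtered matrix per mouse, and values were not normalized. Features in at least 3 cells and cells with at least 200 features, at most 40000 UMIs and at most 25% mitochondrial UMIs were kept, and no doublet caller was run beyond the UMI limit. Cells were integrated across libraries and clustered with Seurat 5.3.0 in R 4.3.3 (2000 variable genes, 30 components, resolution 0.5; 18 clusters), and clusters were named from marker lists, which may differ from the names in the study. Reporter-bearing clusters were called tumor cells. UMIs were summed per mouse and class, and classes with at least 20 cells in each mouse were fitted with edgeR 4.0.16 (quasi-likelihood test, filter on low counts, Benjamini-Hochberg adjustment over all genes, limit 0.05), with DESeq2 1.42.0 as an alternative. Replicates were separate mice, 2 per age. Levels are CPM of the summed UMIs. Shares of cells were taken after thinning to 2000 UMIs in Python 3.11.15, with exact 95% intervals (Clopper-Pearson), and a count of 0 was given a limit of 3 counts. Intervals and limits cover counting error only. The fits were tested on simulated data. The members, the related lists and the markers were chosen with earlier results of these data known. The related genes named with values were, per class and direction, up to 5 past the limit with the largest log2 difference whose mice did not overlap between the ages, and the genes most like the members were the 5 with the highest Pearson's r to their mean, among genes reaching 50 CPM in a profile. Genes counted but outside this rule were named without values. One gene that met the rule is not reported here. Alternatives were other filters, another resolution, no integration, thinning, DESeq2 and leaving out each mouse.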

Additional observations from a re-analysis of the deposited data

Results flagged for a closer look

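Several genes moved in opposite directions in mural and immune cells, with both P70 mice above both P43 mice in mural cells and below them in the immune class. The value given is the log2 ratio of P70 over P43 (10 CPM added) in mural cells minus that in the immune class. The difference was not tested, since the genes were chosen on these values. Against Myeloid cells it was 2.34 for S100a4, 6.30 for S100a6, 3.74 for S100a10, 2.62 for S100a11 and 4.21 for Vim. For Anxa1 it was 5.19, for Anxa2 2.16 and for Lgals1 2.60. Against DC it was 5.71 for S100a6, 3.64 for S100a10, 3.99 for Vim, 2.84 for Cd44 and 2.70 for Lgals1. Against Lymphoid cells it was 3.31 for S100a4, 6.79 for S100a6, 3.61 for S100a10, 2.96 for S100a11, 4.4 for Vim and 2.87 for Lgals1. The mural level of S100a4 in mouse 7 rests on 1 UMI. In some pairs the immune class was nearly level between mouse 5 and mouse 6. At resolution 1.0 Lgals1 stood at 351 and 345 CPM in Myeloid cells of these mice and at 288 and 284 CPM in DC. Cd44 in DC stood at 123.1 and 120.5 CPM. Within the Cd209a cluster of DC the ages overlapped for S100a6. Groups of 2 mice are too small to single out an outlying mouse.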

How the results depend on the processing

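With 2 mice per age, depth and cell number were lowest in mouse 7 for the vessel classes. Leaving out a mouse leaves 1 mouse at that age, which is then assumed to vary like the other age. The number of genes called in mural cells (1618) ranged from 0 to 1072 without 1 mouse and was 574 by DESeq2, and in EC (864) it ranged from 0 to 1291 and was 239. In Myeloid cells (18) it was 81 by DESeq2, 310 without the filter, 11 with 60000 UMIs allowed, 9 without integration, 4 after thinning and 8 to 333 without 1 mouse. In DC (79) it was 325 without the filter, 16 under 10% mitochondrial UMIs, 309 without integration, 14 after thinning and 24 to 373 without 1 mouse. In Lymphoid cells (0) it was 14, 237, 35, 29 and 35 with DESeq2, no filter, 60000 UMIs, 10% mitochondrial UMIs and no integration, and 0 to 247 without 1 mouse. In OL-like cells (0) it was 39 by DESeq2 and 2 without the filter. Related genes called (92) were 54 by DESeq2, 153 without the filter and 40 to 111 without 1 mouse. The median log2 difference of the tested members in mural cells (4.04) was 3.66 without the filter, 3.88 with 60000 UMIs and 3.8 under 10% mitochondrial UMIs. With the smooth muscle cluster left out, an alternative chosen after seeing the data, it was 3.93. Without 1 mouse it was 3.69 to 3.97. In EC (1.46) it was 1.33 to 1.91 without 1 mouse. In Myeloid cells (-0.93) it was -0.67 without the filter, -0.61 after thinning and -1.12 to -0.53 without 1 mouse. In Lymphoid cells (-0.94) it was -0.54 under 10% mitochondrial UMIs and -0.59 without integration. In OL-like cells (1.48) it was 1.18, 0.90 and 1.14 with 60000 UMIs, 10% mitochondrial UMIs and thinning, and 0.69 to 2.23 without 1 mouse. The P70 minus P43 difference in members detected per mural cell (3.36) was 2.43 at 1000 UMIs and 2.47 without thinning. The cause of these shifts was not tested. Of the named related genes, 42 of 83 values without 1 mouse and 16 of 133 under other settings missed the limit, all in the same direction. Mural cells could not be fitted without integration or after thinning, nor EC and Lymphoid cells after thinning, for lack of cells in mouse 7, so related genes over all classes have no value there. No paired analysis was possible because the mice of the 2 ages are different animals and their numbers pair nothing.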

Other observations

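Cells outside the classes compared also carried the genes. The fibroblast cluster seen at resolution 1.0 held 30 cells in mouse 6, with S100a6 at 1655 CPM, Vim at 3167 CPM, Lgals1 at 2969 CPM and Anxa2 at 857 CPM, and 21 cells in mouse 4, with S100a6 at 735 CPM, Vim at 367 CPM and Lgals1 at 408 CPM. The other mice gave 3 cells and 1 cell. In the neutrophil cluster at the same resolution (22, 9, 94 and 4 cells) Anxa1 was counted at 168, 1203, 1574 and 303 CPM in mouse 4 to 7 and S100a6 at 1035, 4089, 1938 and 303 CPM. Smooth muscle cells (10, 12, 14 and 1 cells) had Vim at 1963, 1388, 4620 and 0 CPM, and in this small cluster S100a6 stood at 58.6, 0, 1484 and 0 CPM.

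A cluster of transgene-bearing cells led by genes of mature oligodendrocytes received no class (437, 40, 105 and 308 cells). Its Vim level was 201, 61.1, 152 and 195 CPM and its Anxa2 level 98.7, 14.5, 27.9 and 92.5 CPM.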
